A study of Rattus norvegicus with 8 samples.

Results

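The genes described here are 8 that set how much sterol a cell makes and how much it takes up: Srebf1, Srebf2, Scap, Insig1 and Insig2, the regulators, and Mylip, Stard4 and Npc1, which act on uptake and on sterol movement inside the cell. They were given as a list of symbols and found on the array through the RefSeq accession of each probe, which returned 19 of the 41012 probes, with each gene on at least 1. Of these 19 probes, 16 were bright enough to test, at least 1 for each gene, and every gene was represented among the 20950 features tested by its brightest probe. Gene expression was measured on 1-colour arrays in F344/NSlc rats, females of 10 weeks, using 4 right kidney samples taken after a sham procedure and 4 taken after unilateral nephrectomy, which takes out 1 kidney and leaves the other. The source names place sampling at day 1 for the sham kidneys and day 2 for the nephrectomized ones, whereas the design text gives 2 days without that distinction. Under the source names, the day of sampling would differ with the operation, and for every difference below day and operation cannot be told apart.

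Cells sense cholesterol in the membrane of the endoplasmic reticulum. The SREBP transcription factors are made there as membrane-bound precursors, encoded by Srebf1 and Srebf2, and are held by their escort Scap. When sterol is plentiful the Insig proteins anchor Scap in place, and when it is scarce Scap carries the precursors to the Golgi, where a pair of proteases frees the active factors, which switch on cholesterol synthesis and the LDL receptor. A parallel arm answers to the oxysterol-sensing LXR receptors, which induce sterol exporters and Mylip, a ubiquitin ligase that sends the LDL receptor to degradation.

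All values below are log2 processed signals relative to the 75th percentile of the same array, so 0 is that percentile and a step of 1 is a doubling. Changes are nephrectomized minus sham with the standard error of the limma fit and 4 arrays in each group, and a gene was called when its limma p, adjusted by Benjamini-Hochberg over all 20950 features, was under 0.05. The labels number the samples but name no animal, so these p-values measure only the spread between samples, which may be technical. An array had 59.5% to 66.1% of its probes well above background and none saturated, and the 75th percentile signal lay between 388 and 643. The 10 proximal tubule markers and 10 distal nephron markers were well above background on all 8 arrays, as the kidney label requires. Their median changes were 0.02 and 0.08, and limma called 0 of the 20, with 0 and 1 at an unadjusted p under 0.05. Of all 20950 features, limma called 217, and 3361 had an unadjusted p under 0.05, so 0 calls among 20 markers do not show that they were unchanged. The arrays lay on 2 slides with 2 arrays of each group on each, the sham arrays always at positions 1 and 2 and the nephrectomized ones at positions 3 and 4, so a difference of position cannot be told apart from one of group.

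Of the 8 genes, Insig1 rose and Mylip fell after nephrectomy, and the other 6 did not pass the test. Insig1 was 2.03-fold higher and Mylip was 0.784 times its sham level. For comparison, 217 of all 20950 features were called (1.04%), 157 of them higher (0.749%) and 60 lower (0.286%). The 4 arrays of a group lay wholly above or below the other 4 for 3 of the 8 genes, Srebf1, Insig1 and Mylip, against 11.1% of all features. Counting every probe on its own, 5 of the 16 tested probes were called, against 0.82% of all tested probes, and 7 separated the groups, against 10.7%. The called probes were the 4 of Insig1 and the brighter of Mylip, and the 2 of Srebf1 also separated the groups. Probes of the same gene are not separate observations, so these probe counts rest on 3 genes. The 8 genes had a median change of 0.08 and all features one of 0.0089. Since the genes were proposed with results of these data in view, the counts are a description.

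**Figure D1:**
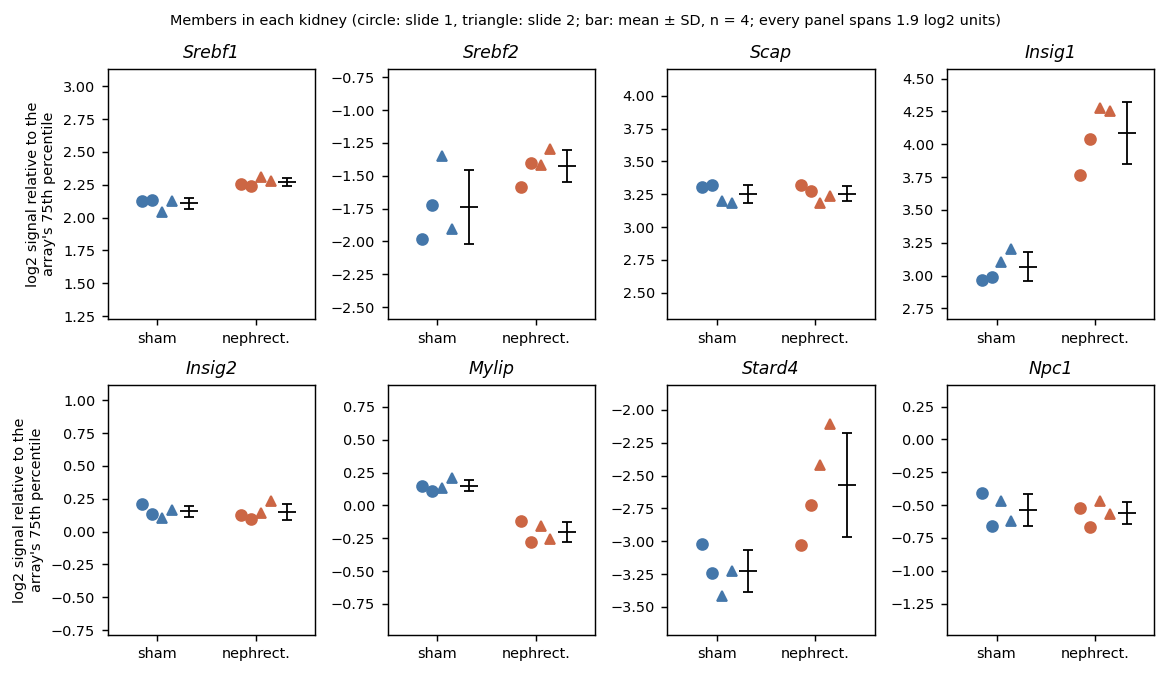
Level of each of the 8 genes on each of the 8 arrays, by its brightest probe, in log2 signal relative to the array's 75th percentile. Circles are arrays of slide 1 and triangles those of slide 2, with the mean ± SD of each group (n = 4), and the groups separate completely for Srebf1, Insig1 and Mylip. Every panel spans the same number of log2 units, and levels are not comparable between genes.

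The promoter windows of the 2 called genes are printed to show the sequence just upstream of each start, taken from RefSeq on assembly GRCr8 and trimmed to the bases that lie outside every annotated transcript. The Insig1 window is chr4:8057813-8058019 on the minus strand, 207 bases, and the Mylip window is chr17:19514491-19514721 on the minus strand, 231 bases. Capitals mark matches, on either strand, to an E-box, a CCAAT box or a GC box, whose letters are given after the sequences.
Insig1: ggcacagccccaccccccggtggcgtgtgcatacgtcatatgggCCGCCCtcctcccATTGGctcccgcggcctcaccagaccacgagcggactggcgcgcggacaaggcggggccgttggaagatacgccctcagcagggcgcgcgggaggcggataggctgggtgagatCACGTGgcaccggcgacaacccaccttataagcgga
Mylip: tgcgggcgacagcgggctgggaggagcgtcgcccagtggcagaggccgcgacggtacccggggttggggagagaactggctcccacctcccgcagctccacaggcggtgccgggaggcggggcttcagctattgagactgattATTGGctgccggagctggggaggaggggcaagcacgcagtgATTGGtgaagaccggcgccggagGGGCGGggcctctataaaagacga
The table holds windows for 7 of the 8 genes, 8 windows in all because Srebf1 has 2, and none for Stard4. In the 250 bases before the start, both strands searched, the core of the sterol regulatory element, TCACNCCAC, occurred in 0 of these 8 windows, in 0 of 16 windows of cholesterol synthesis genes and in 0.974% of all 33469 windows. The E-box, CACGTG, occurred in 2 of the 8, those of Insig1 and Scap, in 1 of the 16 and in 5.59% of all. The letters CCAAT of the CCAAT box occurred in 6 of the 8, in 13 of the 16 and in 34.0% of all. The GC box, GGGCGG, occurred in 7 of the 8, in 13 of the 16 and in 30.5% of all. No motif's letters contain another's, and the E-box reads the same on both strands. These matches describe letters in a window and say nothing of whether a factor binds there. For a string as rare as TCACNCCAC, 0 matches in so few windows do not show that these genes lack the element.

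Insig1, the anchor that keeps Scap and the SREBP precursors in the endoplasmic reticulum and is itself a classic SREBP target, showed the largest change of the 8. Its level was 2.97, 2.99, 3.10 and 3.21 in the 4 sham kidneys and 3.77, 4.04, 4.27 and 4.26 in the 4 nephrectomized ones. Every nephrectomized kidney lay above every sham kidney, and this was already so for the unscaled processed signal, which ran from 3953 to 5186 in sham and from 6772 to 9387 in nephrectomized kidneys. The change was 1.02 ± 0.12 (SE, n = 4 and 4), a 2.03-fold rise with a 95% interval of 1.68 to 2.45, with a limma adjusted p of 0.0138, the rank 31 of all features by p. The other 3 Insig1 probes gave changes of 1.07, 1.07 and 1.05, each called and each with no overlap between the groups, so all 4 probes of the gene gave nearly the same size. With the slide as a block the adjusted p was 0.00636, and the change was 0.93 on slide 1 and 1.11 on slide 2. The call was lost without sham replicate 2 (adjusted p = 0.0621) and without sham replicate 3 (adjusted p = 0.0545), with changes of 0.96 to 1.12 over the 8 omissions.

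Insig2, the second anchor, which in liver is made largely from a transcript that insulin lowers, did not pass the test. Its level was 0.21, 0.14, 0.11 and 0.16 in sham and 0.12, 0.09, 0.14 and 0.24 in nephrectomized kidneys. The groups overlapped fully, and the change was -0.0048 ± 0.06, a fold of 0.997 with a 95% interval of 0.913 to 1.09 (limma adjusted p = 0.978). A further Insig2 probe was well above background on 5 of the 8 arrays and gave 0.39 ± 0.31 with overlapping groups. Set against each other array by array, the change of Insig1 exceeded that of Insig2 by 1.02, with an exact two-sided permutation p of 0.0286, the smallest that the 70 assignments of arrays can give, and an adjusted p of 0.0571 over the 2 pairs of paralogs compared.

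The genes of the transcription factors themselves did not pass the test. Srebf1, whose product drives fatty acid synthesis above all, had levels of 2.13, 2.13, 2.05 and 2.12 in sham and 2.26, 2.24, 2.31 and 2.28 in nephrectomized kidneys. The nephrectomized values were all higher, but the change of 0.16 ± 0.05, a fold of 1.12 with a 95% interval of 1.03 to 1.21, was not called (limma adjusted p = 0.162). The unscaled signals did overlap, from 1900 to 2811 in sham and from 1882 to 2410 in nephrectomized kidneys, and the 75th percentile by which they were scaled ran from 460 to 643 in sham and from 388 to 497 in nephrectomized arrays. A second Srebf1 probe gave 0.21 ± 0.07, with levels of -0.94, -0.94, -1.08 and -0.99 against -0.87, -0.87, -0.74 and -0.62, again without overlap and not called. The probes do not say which of the Srebf1 transcripts, SREBP-1a or SREBP-1c, was measured.

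Srebf2, whose product is the main driver of cholesterol synthesis and LDL uptake, had levels of -1.98, -1.72, -1.35 and -1.90 in sham and -1.58, -1.40, -1.42 and -1.30 in nephrectomized kidneys. Sham replicate 3 lay among the nephrectomized values, so the groups overlapped. The change of 0.31 ± 0.14, a fold of 1.24 with a 95% interval of 0.998 to 1.55, was not called (limma adjusted p = 0.316). The probe was dim, with processed signals of 150 to 181, and the gene's other probe was well above background on 0 of 8 arrays. The change of Srebf2 exceeded that of Srebf1 by 0.15, which the exact two-sided permutation test did not separate from 0 (p = 0.371, adjusted p = 0.371). That difference was 0.30 without sham replicate 3 (exact permutation adjusted p = 0.0571), 0.06 without sham replicate 1 and 0.09 without sham replicate 4. It was 0.24 on slide 1, 0.06 on slide 2 and 0.04 under normexp background correction.

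Scap, the sterol-sensing escort, had levels of 3.31, 3.32, 3.20 and 3.19 in sham and 3.32, 3.28, 3.18 and 3.24 in nephrectomized kidneys. The 4 values of each group spanned nearly the same range. The change was 0.0020 ± 0.06, with a 95% interval of -0.13 to 0.14 on the log2 scale (limma adjusted p = 0.992). Its sign turned under normexp with quantile, quantile, median and cyclic loess scaling, the lowest value being -0.077.

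**Figure D2:**
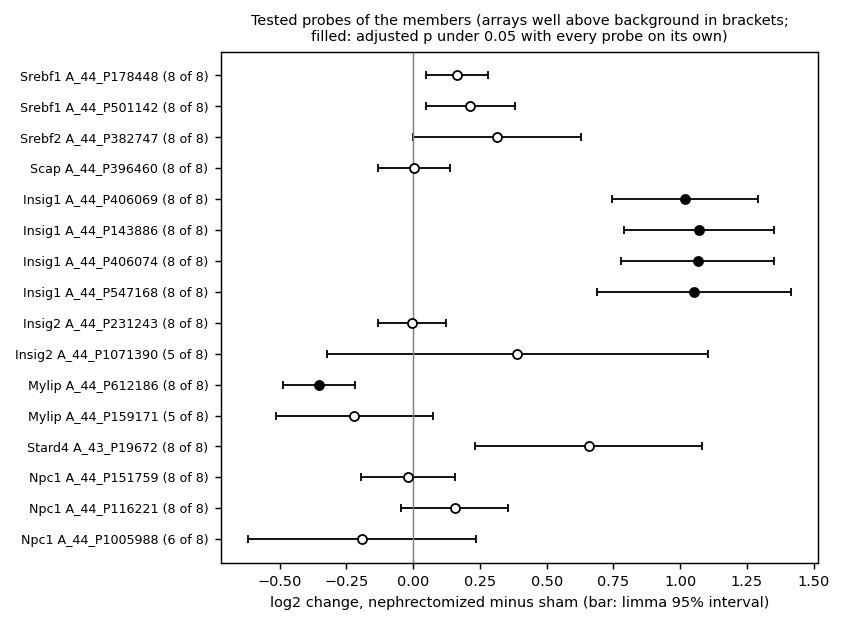
Change of every tested probe of the 8 genes, nephrectomized minus sham, in log2 units, with the 95% interval of the limma fit over all probes and, in brackets, the number of arrays on which the probe was well above background. The 4 Insig1 probes lie together near 1, the brighter Mylip probe lies below 0, and the intervals of the dim Insig2 and Npc1 probes are wide.

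Mylip, the ligase that marks the LDL receptor for degradation and an LXR target, fell. Its level was 0.15, 0.11, 0.14 and 0.21 in sham and -0.12, -0.28, -0.16 and -0.25 in nephrectomized kidneys. Every nephrectomized kidney lay below every sham kidney. The unscaled signal separated as well, from 505 to 714 in sham and from 326 to 457 in nephrectomized kidneys. However, the 75th percentile also ran lower in nephrectomized arrays, 388 to 497 against 460 to 643, so unscaled signals lean towards a fall. The change was -0.35 ± 0.06 (SE, n = 4 and 4), a fold of 0.784 with a 95% interval of 0.714 to 0.860, so the level fell by 21.6%, with a limma adjusted p of 0.0414. A second, dim Mylip probe, well above background on 5 of the 8 arrays, gave -0.22 ± 0.13 with overlapping groups and was not called.

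The Mylip call was close to the threshold. With the slide as a block its adjusted p was 0.0604, the change was -0.33 on slide 1 and -0.38 on slide 2, and normexp background correction gave -0.31 with an adjusted p of 0.0604. The call held without nephrectomized replicate 1 and was lost without any one of the other 7 arrays, with adjusted p-values of 0.0473 to 0.115 over the 8 omissions and changes of -0.38 to -0.33. Markers of white blood cells, in which Mylip is also expressed, moved with it: of 12 such markers 9 were tested, 0 of the 9 changes were above 0, and 3 fell, S100a9 and S100a8, calcium-binding proteins of neutrophils, and Adgre1, a macrophage receptor. Their median change was -0.33, while the defining marker Itgam was not well above background on any array. The summed level of all 12, in multiples of the 75th percentile, was 105.3 to 126 in sham and 85.1 to 97.9 in nephrectomized kidneys. That sum is weighted to the brightest markers, Cd74 (sham level 6.47, change -0.35) and Lyz2 (4.27, -0.04), neither called. The part of white cells in the Mylip result was not tested. In bulk tissue, fewer cells of a type and less RNA per cell cannot be told apart.

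Stard4, a soluble carrier that moves cholesterol between membranes and an SREBP-2 target, had levels of -3.02, -3.24, -3.41 and -3.23 in sham and -3.03, -2.72, -2.42 and -2.11 in nephrectomized kidneys. Nephrectomized replicate 1 lay within the sham range and the other 3 lay above it. The change of 0.66 ± 0.19, a fold of 1.58 with a 95% interval of 1.17 to 2.12, was not called (limma adjusted p = 0.136). It was 0.26 on slide 1 and 1.06 on slide 2, and normexp background correction gave 0.40. The probe was dim, with processed signals of 43.1 to 90.8, and was well above background on all 8 arrays.

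Npc1, the lysosomal membrane protein that lets LDL-derived cholesterol leave the lysosome, had levels of -0.41, -0.66, -0.47 and -0.62 in sham and -0.53, -0.67, -0.47 and -0.57 in nephrectomized kidneys. The groups overlapped, and the change was -0.02 ± 0.08, a fold of 0.986 with a 95% interval of 0.873 to 1.11 (limma adjusted p = 0.930). Of its 5 probes 3 were tested, and the other two gave 0.16 and -0.19, opposite in sign and neither called.

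Set side by side, 1 of the 5 regulators and 1 of the 3 uptake and transport genes were called, against 1.04% of all features. Insig1 rose and Mylip fell. The regulators had a median change of 0.16, from -0.0048 for Insig2 to 1.02 for Insig1, and the uptake and transport genes a median of -0.02, from -0.35 for Mylip to 0.66 for Stard4. Mylip sends the LDL receptor to degradation, unlike Stard4 and Npc1, so the median of the 3 gives no direction of uptake. The difference between the regulators and the uptake and transport genes, both small groups, was not tested. Of the 6 genes not called, Srebf1 (0.12 on slide 1 and 0.21 on slide 2), Srebf2 (0.36 and 0.27) and Stard4 kept a change above 0 on both slides, whereas Scap (-0.01 and 0.02), Insig2 (-0.06 and 0.05) and Npc1 (-0.07 and 0.03) turned sign between them.

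The cholesterol synthesis enzymes, the main targets of SREBP-2, rose in large part. Of the 9 genes of the mevalonate pathway 7 were called, all higher, with a median change of 0.74, against a median of 0.0089 over all features. Idi1, isopentenyl-diphosphate isomerase, rose by 1.54 ± 0.13 (2.90-fold), Fdps, which makes farnesyl diphosphate, by 0.75 ± 0.08, and Mvd by 0.74 ± 0.07, with limma adjusted p-values of 0.0101, 0.0131 and 0.0101. Of the 12 genes from squalene to cholesterol 7 were called, all higher, and all 12 changes were above 0, with a median of 0.60. Over all features 0.749% were called higher and 52.5% had a change above 0. Cyp51 rose by 1.31 ± 0.13, Sqle, squalene epoxidase, by 1.14 ± 0.12, Hsd17b7 by 1.09 ± 0.11 and Msmo1 by 1.05 ± 0.10, each at a limma adjusted p of 0.0101 except Hsd17b7 at 0.0107. Over all tested genes the changes ran from -0.22 to 1.54 in the mevalonate list and from 0.17 to 1.31 from squalene on.

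These counts depended on single arrays. The mevalonate count went to 3 without sham replicate 2 and to 4 without sham replicate 3 or nephrectomized replicate 2, 3 or 4. The later count went to 4 without sham replicate 1, 2 or 3 or nephrectomized replicate 2 or 3. The list medians moved less, from 0.69 to 0.77 and from 0.56 to 0.65 over the 8 omissions, and were 0.59 and 0.58 on slide 1 and 0.80 and 0.72 on slide 2. Proliferation markers also moved between the groups: all 8 tested of 10 had changes above 0, with a median of 1.80, and 2 were called, Ccnb2 and Cdk1, with a summed level over the 9 on the array of 2.18 to 3.05 in sham and 4.58 to 18 in nephrectomized kidneys. Their part in the rise of the sterol genes was not tested. Of the adrenal cortex markers, a tissue next to the kidney that is rich in sterol enzymes, 6 of 8 on the array were well above background on no array, among them Cyp11b1, Cyp11b2, Cyp21a1 and Nr5a1, and Cyp11a1 was so on 3. The marker tested, Cyp17a1, was well above background on all 8 arrays and gave 0.27 ± 0.09 (limma adjusted p = 0.196). The summed level of the 8 on the array was 0.199 to 0.258 in sham and 0.256 to 0.280 in nephrectomized kidneys, and its part in the sterol results was not tested.

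The genes listed for the transport and cleavage of the SREBP precursors and for the degradation of the Insig proteins gave no call. Of the 14 genes 11 were tested, with a median change of -0.07. By limma 0 were called, which beside 1.04% of all features does not set so small a list apart. At an unadjusted p under 0.05 lay 1 gene, against 3361 of all 20950 features. That gene was Rnf145, a ubiquitin ligase of the endoplasmic reticulum, at -0.66 ± 0.23 with no overlap between the groups and a limma adjusted p of 0.210, named here after its value was seen. Mbtps1, the first of the proteases that release SREBP, gave -0.11 ± 0.06 (limma adjusted p = 0.441), and Mbtps2, the second, was well above background on 2 of 8 arrays and not tested. Vcp, an ATPase that pulls proteins from the membrane, gave 0.03 ± 0.07, and Syvn1, a ligase of the same degradation route, -0.11 ± 0.08.

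Other genes of sterol uptake and transport mostly did not pass the test. Of 19, 1 was called, Tmem97, a sterol-responsive membrane protein that binds NPC1, which rose by 0.65 ± 0.07 with a limma adjusted p of 0.0122, and the median change was 0.01. Over all features 1.04% were called, and 1 call in a list this small describes that gene rather than the list. The lipogenic targets of SREBP-1 gave 1 call among 11 tested of 12, Fasn, fatty acid synthase, which rose by 0.45 ± 0.08 with a limma adjusted p of 0.0419, and a median change of 0.08. The call of Fasn was lost with the slide as a block, and its list had 0 calls when any one array other than sham replicate 1 was left out.

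The LXR arm, to which Mylip belongs, was examined without Mylip and Srebf1, since both are among the 8 genes. Of its 9 genes 6 were tested and 1 was called, against 1.04% of all features. It was Abcg1, a sterol exporter, which fell by 0.62 ± 0.08 on the log2 scale (limma adjusted p = 0.0196). Abca1, the exporter that loads cholesterol on apolipoprotein A-I, gave -1.03 ± 0.24 with no overlap between the groups and was not called (limma adjusted p = 0.0825). The receptor genes gave -0.06 ± 0.07 for Nr1h2 and 0.09 ± 0.07 for Nr1h3, neither called. The remaining tested targets, named after their values were seen, gave 0.25 ± 0.10 for Lpcat3, a phospholipid acyltransferase (limma adjusted p = 0.264), and 0.01 ± 0.06 for Smpdl3a. The list's median change was -0.03, with 3 of 6 changes above 0. The Abcg1 call was lost without sham replicate 1, 2 or 3 or nephrectomized replicate 2 or 4. Macrophages also express these exporters. The changes of the white cell markers described beside Mylip were also below 0, but of uneven size. Adgre1 gave -0.51 and was called, whereas Cd68, Csf1r and Lyz2 gave -0.11, -0.05 and -0.04 and were not called. The part of white cells in these values was not tested.

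**Figure D3:**
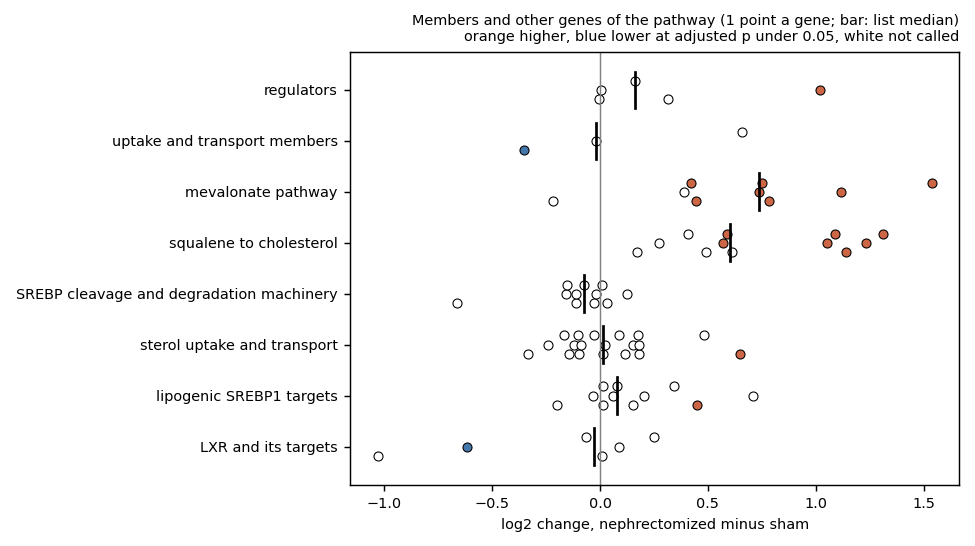
Change of the 8 genes and of each tested gene of the 6 pathway lists, nephrectomized minus sham, in log2 units. Orange points were called higher and blue points lower at a limma adjusted p under 0.05, and bars mark medians, which are 0.74 and 0.60 for the cholesterol synthesis lists and between -0.07 and 0.16 for the other rows.

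The genes whose 8 array values were most like those of Insig1 were all cholesterol synthesis enzymes. By Pearson correlation over the 8 arrays, Msmo1 came first (r = 0.997), then Sqle (r = 0.991) and Idi1 (r = 0.990), among 10249 tested genes with a symbol. After each group's mean was taken out the correlations were 0.97, 0.89 and 0.90. Nephrectomized replicate 1, the lowest of its group for Insig1, was also the lowest for each of these 3. That array was the lowest of its group for the called proliferation markers Ccnb2 and Cdk1 too. It also had the smallest share of probes well above background, 59.5%. The genes most like Mylip were Msmp (r = 0.976, change -1.31, limma adjusted p = 0.0163), Gimap5, a lymphocyte GTPase (r = 0.964, change -0.21, limma adjusted p = 0.0937), and Cbx7, a Polycomb protein (r = 0.958, change -0.34, limma adjusted p = 0.0438). Within groups these correlations were 0.75, 0.61 and 0.52. They are descriptions over 8 arrays that share the difference between groups, picked as the highest of many.

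**Figure D4:**
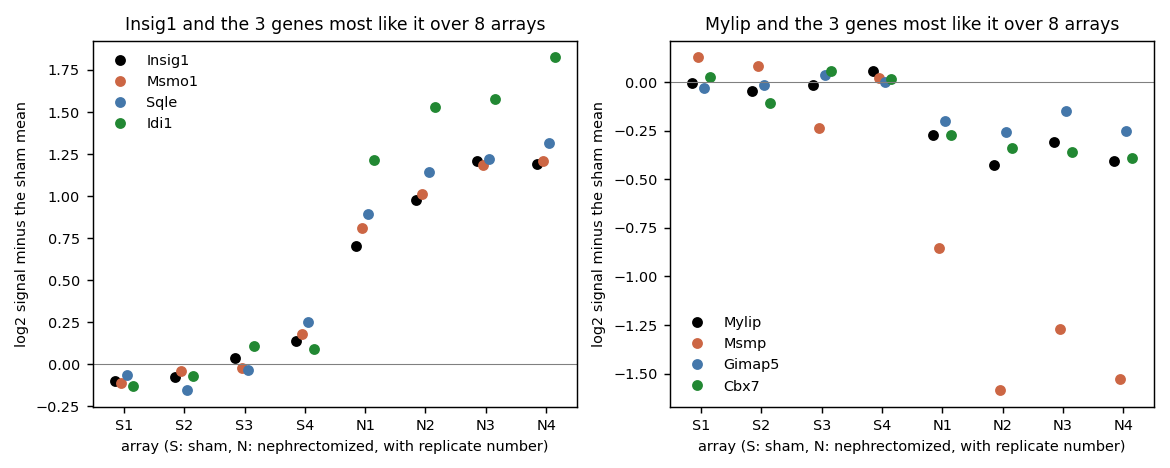
Level of Insig1 and Mylip and of the 3 genes most like each, on each of the 8 arrays, in log2 signal relative to the 75th percentile, with the gene's sham mean subtracted. The 3 genes beside Insig1 follow it within the groups as well, with nephrectomized replicate 1 lowest of its group in each.

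**Figure D5:**
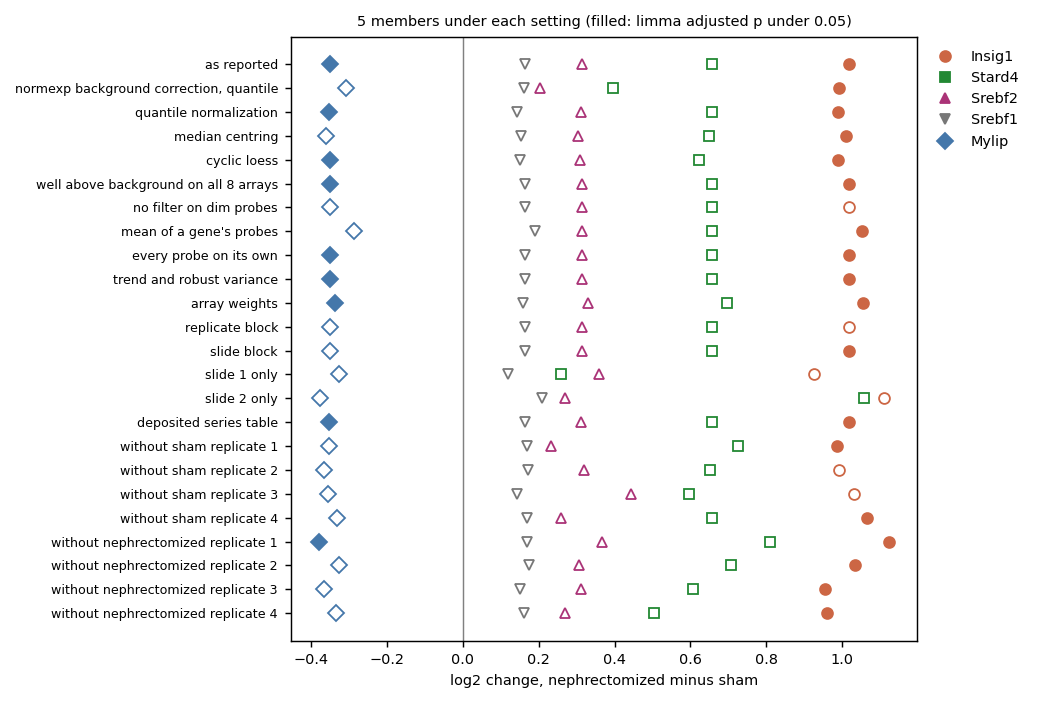
Change of 5 of the genes, nephrectomized minus sham, under each alternative way of processing the arrays and with each array left out, in log2 units, filled where the limma adjusted p was under 0.05. The values for Insig1 stay between 0.93 and 1.12 and those for Mylip between -0.38 and -0.29, whereas those for Stard4 spread from 0.26 to 1.06.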

How the data were processed

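Total RNA of 8 kidney samples was labelled with Cy3 and hybridised to 1-colour Agilent arrays, 1 array a sample, per the labels' protocols. Spots were quantified by version 10.5.1.1 of Agilent Feature Extraction, per the file headers. The deposited processed signal is an intensity, background-subtracted and detrended within each array, per the file headers, with no scaling from array to array. Flags of 0 or 1 mark spots well above background, saturated or outlying. The deposited series table holds log2 values. A comparison with the scanner values (correlation over 0.999, slope 1.00) showed them to be log2 signals relative to the array's 75th percentile with the median over arrays taken out of each probe, running in the same direction. Column medians, sham first, were -0.0145, -0.00231, -0.00103 and -0.00968 in replicates 1 to 4, then 0.00123, 0.0124, -0.000916 and 0.0153 in the nephrectomized ones.

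From the processed signal, log2 values minus each array's 75th percentile were computed, leaving out the 1639 control spots among 45018 and the spots marked as outliers, and averaging the spots of a probe. Tests took in the 25250 probes that stood well above background on at least 4 of 8 arrays. Probes were named through RefSeq accessions on assembly GRCr8, which gave a symbol to 18713 probes, and the probe with the highest mean stood for its gene. limma 3.58.1 in R 4.3.3 (lmFit, eBayes, no covariates) compared the groups, with Benjamini-Hochberg adjustment over 20950 features. The steps were tested on simulated data. The number of arrays limits the precision.

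The 8 genes, the lists and the tests were chosen with earlier results of these data known. Named are the 8 genes with every tested probe, up to 4 called genes of each pathway list by adjusted p or else its 2 brightest, Abca1, Abcg1, Mbtps1, Mbtps2 and Fasn regardless of outcome, and the 3 genes most like each called member, apart from 1 gene that is not reported here. Alternatives covered background correction, scaling, filters, probe choice, variance, weights, blocks, slides, the deposited table and leaving out each array. Normexp used the median spot signal with an offset of 50.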

Additional observations from a re-analysis of the deposited data

Results flagged for a closer look

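In groups of 4 arrays the highest or lowest value was set against the other 3 by Dixon's ratio, for the 31 probes of the 8 genes and of the other named genes, which makes 62 groups. Chance flags about 1 in 20 groups, and 2 were flagged. Srebf1 in sham replicate 3 stood at 2.05, below the other sham kidneys at 2.12 to 2.13. Vcp in nephrectomized replicate 3 stood at 4.47, above the other nephrectomized kidneys at 4.25 to 4.28. Neither gene was called.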

How the results depend on the processing

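Over 15 alternatives and 8 omissions of 1 array, Srebf1, Srebf2 and Stard4 stayed above 0 and not called, Insig1 stayed above 0 and Mylip below 0. The features called over the whole array, 217, became 394 when probes had to be well above background on all 8 arrays, 20 with no filter, 530 with trend and robust variance, 504 with array weights, 100 with the slide as a block, 0 on slide 1 alone (limma, 1883 at an unadjusted p under 0.05) and 0 on slide 2 alone (1745), and 22 to 197 with 1 array left out. The normexp setting also used quantile scaling.

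Insig1 was not called with no filter (1.02, adjusted p = 0.0562), on slide 1 (0.93, 0.480) or on slide 2 (1.11, 0.387), and its change was 0.96 to 1.12 with 1 array left out. Its limma adjusted p ran from 0.00277 to 0.480 over the alternatives. Mylip was not called under normexp (-0.31, adjusted p = 0.0604), median centring (-0.36, 0.0613), no filter (-0.35, 0.132), the mean of a gene's probes (-0.29, 0.0884), the slide as a block (-0.35, 0.0604), slide 1 (-0.33, 0.532) or slide 2 (-0.38, 0.494), and its change was -0.38 to -0.33 with 1 array left out. Its limma adjusted p ran from 0.0205 to 0.532. Of the 8 genes, 1 was called under normexp, median centring, the mean of probes and the slide block, 0 with no filter and on each slide, and 0 to 2 with 1 array left out.

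Genes near 0 changed sign. Scap was -0.077 under normexp, -0.0204 under quantile normalization, -0.023 under cyclic loess, -0.0200 with array weights, -0.0073 under median centring and -0.014 on slide 1, and -0.0200 to 0.025 with 1 array left out. Insig2 was 0.018 under normexp, 0.19 as the mean of its probes, 0.0019 with array weights and 0.055 on slide 2, and -0.034 to 0.014 with 1 array left out. Npc1 was 0.039 with array weights and 0.027 on slide 2, and -0.059 to 0.024 with 1 array left out. Called genes of the mevalonate list, 7, became 2 with no filter and 0 on each slide, and 3 to 7 with 1 array left out, and those from squalene on, 7, became 4 with no filter and 0 on each slide, and 4 to 8. The sterol uptake list, 1, had 2 under normexp, cyclic loess, trend and robust variance and array weights, and 0 with no filter and on each slide. The lipogenic list, 1, had 0 with no filter, the slide block and each slide, and 0 to 1 with 1 array left out. The LXR list, 1, had 0 with no filter and on each slide, and 0 to 1 with 1 array left out. The fits on a slide held fewer arrays and the fit without a filter more features, and the cause of these moves was not tested.

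Deviations from the group means in arrays of the same replicate number had correlations of 0.14, 0.011, -0.06 and -0.21. Arrays of different number gave -0.21 to 0.24, the same range, so this check cannot decide whether the numbers pair the samples. With the replicate block 10 features were called over the whole array, 0 of the 8 genes (Insig1 1.02, adjusted p = 0.0612, and Mylip -0.35, 0.139), 2 genes of the mevalonate list, 3 from squalene on, and 0 of the sterol uptake, lipogenic and LXR lists.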
